A study of Mus musculus with 6 samples.

Results

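Integrins and the proteins that couple them to actin in focal adhesions were followed in podocytes that overexpressed the long non-coding RNA Dlx6-os1. The genes were taken by symbol. Every symbol that begins with Itga or Itgb was included, together with a list of 20 focal adhesion genes, and 35 of the 11308 listed genes met this rule. They comprised 9 integrin α chains, 6 β chains, 18 of the 20 focal adhesion genes, and Itgb1bp1 and Itgb3bp, which share the prefix but do not encode integrin chains. Parvb and Tgfb1i1 were not analysed here. The 35 genes held 80 of the 21849 listed transcripts.

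RNA-seq of polyA RNA compared 3 samples overexpressing Dlx6-os1 with 3 control samples. All 6 were cultures of MPC5, a conditionally immortalized mouse podocyte line, labelled as strain C57BL/6 and kept in normal glucose. In the labels the cells received a lentivirus that carried Dlx6-os1 or, for the controls, a vector without insert, whereas the study's methods name an adenovirus with the full-length RNA. WT is the name of the controls in the sample titles, and the third of them carries no genotype label. The methods speak in general of distinct samples from different animals or independent experiments, and the labels do not say how these 6 cultures were set up, so the p-values measure the spread between these samples.

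Integrins are αβ heterodimers that bind the extracellular matrix outside the cell and, through short cytoplasmic tails, a plaque of adaptor proteins inside it. Talin and kindlin bind the β tail and switch the receptor on. Vinculin, α-actinin, filamin and tensin tie the plaque to actin, and the ILK complex and the kinases FAK and Src carry the signal onward. In podocytes the laminin receptor α3β1 holds the foot processes to the glomerular basement membrane, and mice that lack either chain in podocytes develop proteinuria.

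Levels are given as FPKM, in which fragment numbers are divided by transcript length and library depth, summed over the listed transcripts of a gene. Changes are differences of log2(FPKM + 1), overexpression minus control, from a limma fit over all genes. A gene was called higher or lower where it passed the thresholds the study used, which are a fold above 1.5 together with a p under 0.05 before adjustment. The fold was taken here on FPKM + 1, which shrinks the changes of genes near or below 1 FPKM. The ratio of group mean FPKM, overexpression over control, was 0.426 for Itgb6 and 4.0 for Itgb2. With the fold of group mean FPKM the calls among the 35 genes were the same. Printed p-values are after Benjamini-Hochberg adjustment over all genes or, for transcripts, over all transcripts. Read depth is unknown.

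Among podocyte markers, Synpo, which encodes an actin-associated foot process protein, had 44.1 to 53.4 FPKM in overexpression samples and 36.5 to 72.3 FPKM in control samples. Nphs1, which encodes nephrin of the slit diaphragm, was not analysed here. Of 13 podocyte markers 7 were measured, and 2 were called lower, Kirrel and Plce1, both without overlap between groups. Over all genes 2.23% were called lower, 6.24% did not overlap in this direction and 45.8% had a log2 change below 0. Of the 7 markers 5 had a log2 change below 0, while Actn4 (0.20) and Cd2ap (0.10) lay above 0 and were not called. Kirrel had 30.0, 31.1 and 70.9 FPKM in overexpression samples and 134.1, 131.0 and 119.5 FPKM in control samples. The summed level of the 7 was 341.6 to 397 FPKM in overexpression samples and 375 to 465 FPKM in control samples. Actn4 alone had 199.3 to 226.5 FPKM in overexpression samples and 175.2 to 200.9 FPKM in control samples. Of 11 tubule markers 3 were measured and all 3 were called lower, against 2.23% of all genes. None of the 3 passed after adjustment (smallest limma adjusted p = 0.455). In each of them overexpression replicate 3 was the lowest sample, as in Aqp1 with 88.0, 65.7 and 18.3 FPKM in overexpression samples. The sums of the 3 markers were 103 to 283 FPKM in overexpression samples and 337 to 533 FPKM in control samples. Overexpression replicate 3 was the lowest sample in 60.0% of the 35 genes, against 20.2% of all genes. Of 8 mesangium and smooth muscle markers 6 were measured, of which 5 had a log2 change below 0 and 1, Gata3, was called lower. Their sums were 68.6 to 143.5 FPKM in overexpression samples and 149.2 to 567.1 FPKM in control samples. Among them, control replicate 3 had 86.8 FPKM of the smooth muscle actin gene Acta2, against 6.06 to 6.86 FPKM in the other control samples. The part of these differences in the results was not tested.

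Of the 35 genes, 0 were called higher and 2 were called lower, the integrin chain gene Itgb5 and the tensin gene Tns1. Over all genes tested, 2.49% were called higher (282 genes) and 2.23% lower (252 genes), a split that became 228 higher and 314 lower with median-centring. None of the 35 passed after Benjamini-Hochberg adjustment over all genes (smallest limma adjusted p = 0.425), as 0.0354% of all genes did, and 2 of the 35 had an unadjusted p under 0.05, against 9.16% of all genes. The log2 change was below 0 in 24 of the 35 (68.6%, against 45.8% of all genes). Its median was -0.16, against 0.03 over all genes. Without overexpression replicate 3 the median was -0.06 and the number called lower was 0. For 27 of the 35 the 95% confidence interval of the change lay within 1 log2 unit of 0 on both sides.

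**Figure D1:**
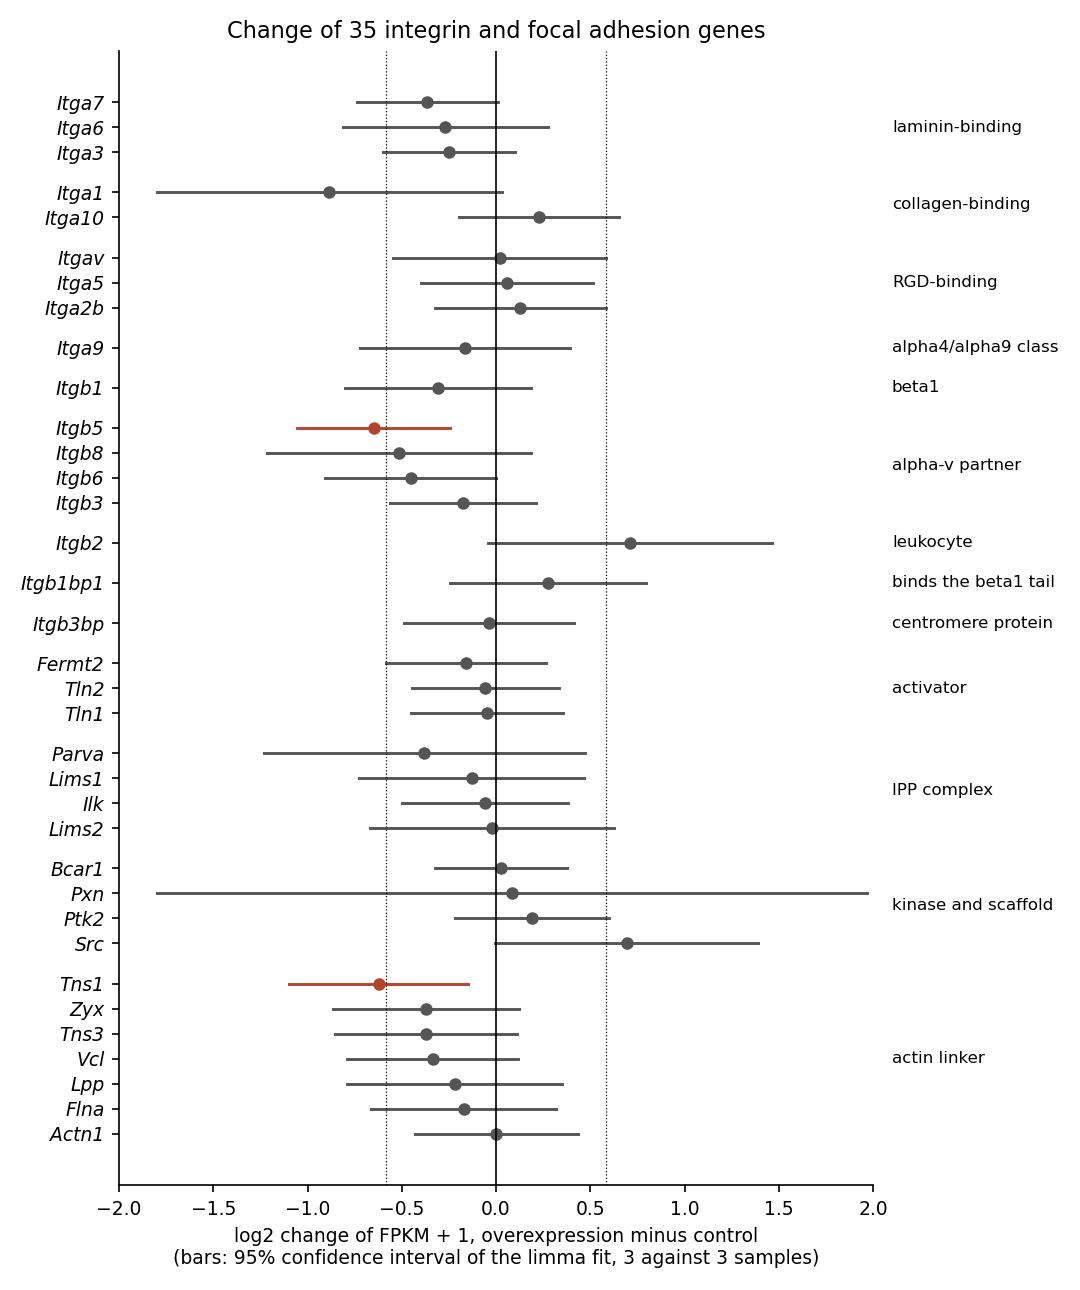
Log2 change of FPKM + 1 (overexpression minus control, horizontal axis) of the 35 genes grouped by role, with 95% confidence intervals of the limma fit over 3 against 3 samples. Dotted lines mark a fold of 1.5 in each direction, and the 2 genes drawn in red, Itgb5 (-0.65) and Tns1 (-0.62), were called lower.

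Itgb5 encodes the β5 chain, which pairs with αv to form a receptor for vitronectin. It had 148.3, 180.3 and 125.5 FPKM in overexpression samples and 212, 252 and 244 FPKM in control samples. Each overexpression sample stood below each control sample. The log2 change was -0.65 ± 0.18 (SE, 95% confidence interval -1.05 to -0.24, limma adjusted p = 0.425). Without overexpression replicate 3 it was -0.52, which is short of the 1.5-fold threshold. In GRCm38 the gene lies at chr16:33829665-33949153 on the plus strand, and 2 of its transcripts were listed. Itgb5-001 carried nearly all of the level, with 143.7, 177.5 and 121.8 FPKM in overexpression samples and 208.4, 246.6 and 240.4 FPKM in control samples. As a single transcript it was also called lower (-0.66, limma adjusted p = 0.596). Itgb5-002, which begins 12 bases downstream, had 2.82 to 4.61 FPKM in overexpression samples and 3.79 to 4.92 FPKM in control samples.

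Promoter activity was not measured. Itgb5-001 and Itgb5-002 both begin in the window below, 12 bases apart, and the start of Itgb5-001 coincides with the RefSeq start of the gene. The 300 bases from 250 before to 50 after that start (RefSeq, GRCm38.p6, chr16:33829415-33829714, plus strand) are shown with GC boxes in capitals, a GC box being GGGCGG or, on the other strand, CCGCCC:
Itgb5: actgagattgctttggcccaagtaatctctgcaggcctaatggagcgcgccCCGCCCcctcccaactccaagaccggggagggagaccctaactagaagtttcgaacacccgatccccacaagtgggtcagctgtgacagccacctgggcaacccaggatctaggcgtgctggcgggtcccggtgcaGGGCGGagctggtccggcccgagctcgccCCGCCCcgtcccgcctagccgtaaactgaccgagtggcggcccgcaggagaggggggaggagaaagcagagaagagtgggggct
The window held 3 GC boxes and 0 matches to TATAAA on either strand, and 65.7% of its bases were G or C. GC boxes were found in 35.7% of all 32851 promoter windows of this length and in 18 of the 33 windows (54.5%) of the 26 genes matched by symbol, while TATAAA was found in 13.6% of all windows and 1 of the 33.

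Itgb1, the β chain shared by most of the α chains measured, was the most abundant β chain, with 259.8, 225.6 and 191.2 FPKM in overexpression samples and 356.8, 218.7 and 274.0 FPKM in control samples. The groups overlapped, since control replicate 2 stood below overexpression replicates 1 and 2 (log2 change -0.31 ± 0.22 SE, limma adjusted p = 0.696), and the change was -0.13 without control replicate 1 and -0.48 without control replicate 2. Itgb1 was above Itgb5 in 5 of 6 samples, and the range of the pair over all 6 samples overlapped. Itgb5 formed 39.7% ± 4.06 of the summed β chain FPKM in overexpression samples and 45.6% ± 8.11 in control samples (SD, n = 3 each), and these shares overlapped. The difference of -5.85 percentage points was -2.12 without control replicate 2 and -10.2 without control replicate 1. Each of the remaining β chains was far below this pair, at no more than 3.68 FPKM in any sample.

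The 3 further β chains that pair with αv were measured at low levels. Itgb8, whose product with αv activates latent TGF-β, had 1.70, 1.51 and 0.639 FPKM in overexpression samples and 3.68, 2.08 and 1.25 FPKM in control samples. These values overlapped (-0.52 ± 0.31 SE, limma adjusted p = 0.643), and the change was -0.24 without control replicate 1 and -0.77, past the thresholds, without control replicate 3. Itgb3, the β chain of the vitronectin receptor αvβ3, had 1.14, 1.04 and 0.785 FPKM in overexpression samples and 1.11, 1.28 and 1.34 FPKM in control samples, which also overlapped (-0.18 ± 0.17 SE, limma adjusted p = 0.797). Itgb6, an epithelial chain whose product with αv also activates latent TGF-β, had 0.542, 0.405 and 0.223 FPKM in overexpression samples and 0.839, 0.607 and 1.30 FPKM in control samples. Its groups did not overlap, yet it was not called (-0.45 ± 0.20 SE, 95% confidence interval -0.91 to 0.00, limma adjusted p = 0.548). Itgb5, Tns1 and Itgb6 were the 3 of 35 genes in which every overexpression sample stood below every control sample, against 6.24% of all genes, and the opposite order occurred in 0 of 35, against 10.1% of all genes. The 4 β chains grouped here as αv partners were Itgb5, Itgb8, Itgb3 and Itgb6, a group that leaves out Itgb1. All 4 had a log2 change below 0, with a median of -0.48, where 45.8% of all genes were below 0. Of the 4 only Itgb5 was called lower, against 2.23% of all genes, and the other 3 had at most 3.68 FPKM in any sample.

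**Figure D2:**
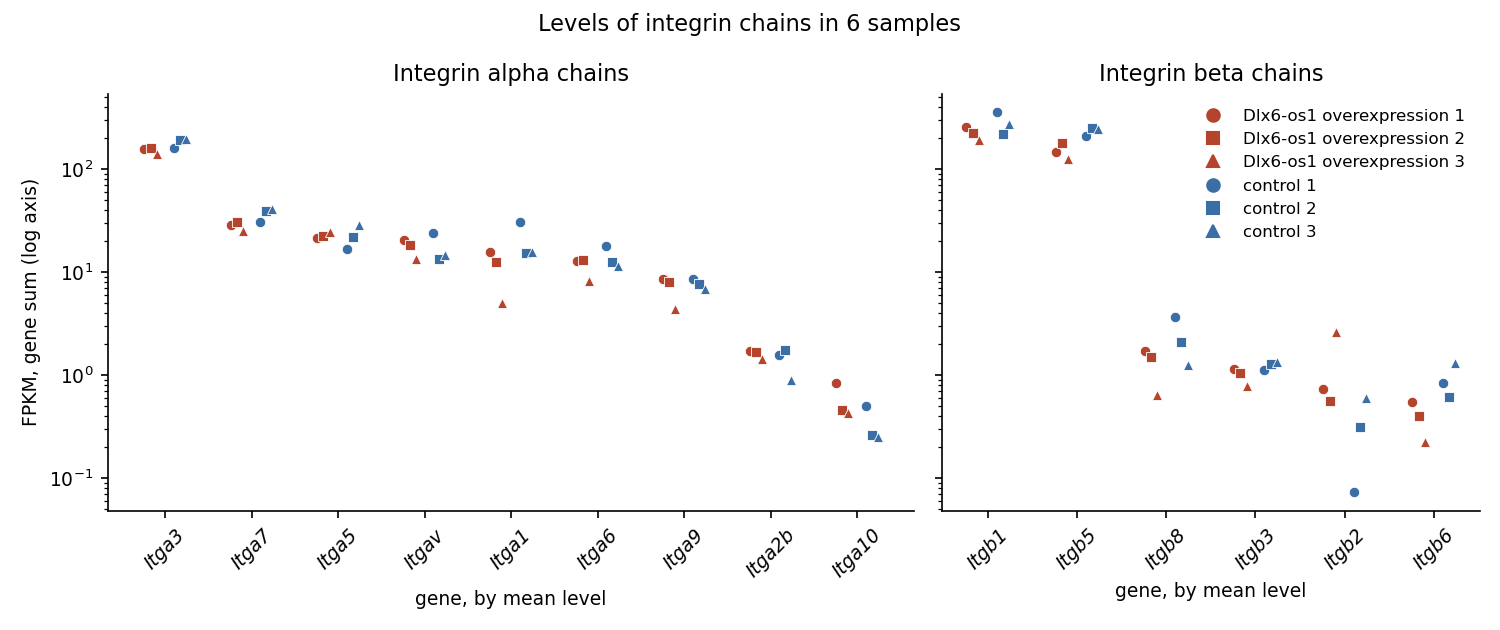
FPKM of 9 α chains and 6 β chains (log axis) in each of the 3 overexpression samples (red) and 3 control samples (blue), with genes ordered by their mean over all samples and symbols marking the replicate number. Itga3 stood above the other α chains, and Itgb1 and Itgb5 above the other β chains, in every sample.

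Itgav, the α chain that all of these β chains share, had 20.5, 18.3 and 13.5 FPKM in overexpression samples and 24.3, 13.6 and 14.7 FPKM in control samples. The groups were interleaved, and the log2 change was 0.02 ± 0.25 (SE, 95% confidence interval -0.55 to 0.59, limma adjusted p = 0.987), with a sign that turned under 8 of the alternatives tried. At the transcript level Itgav-005, which begins 158 bases downstream of Itgav-001, was listed at 0 in all 3 overexpression samples and had 7.60, 4.39 and 0 FPKM in control samples. It was called lower as a transcript (-1.84, limma adjusted p = 0.654), and it is 1 of 12 transcripts of the 35 genes listed at 0 in 1 or more samples.

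Itga3, the α chain of the podocyte laminin receptor, was the leading α chain. It had 157.8, 160.7 and 140.0 FPKM in overexpression samples and 159.9, 191.7 and 195.9 FPKM in control samples. The groups overlapped only through control replicate 1, which stood between overexpression replicates 1 and 2 (-0.25 ± 0.15 SE, limma adjusted p = 0.654). Itga3 formed 60.5% ± 2.07 of the summed α chain FPKM in overexpression samples and 60.0% ± 4.40 in control samples (SD, n = 3 each), so the difference of the means was smaller than the spread in either group. The other laminin-binding chains lay on the same side of 0. Itga7, known from muscle, had 28.8, 30.9 and 25.3 FPKM in overexpression samples and 30.6, 39.2 and 41.0 FPKM in control samples. Its groups overlapped by a narrow margin between overexpression replicate 2 and control replicate 1 (-0.36 ± 0.16 SE, 95% confidence interval -0.74 to 0.01, limma adjusted p = 0.555). Itga6, the laminin receptor chain of many epithelia, had 8.18 to 13.3 FPKM in overexpression samples and 11.4 to 18.0 FPKM in control samples (-0.27 ± 0.24 SE, limma adjusted p = 0.772).

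Itga5, which with β1 forms the classical fibronectin receptor, had 21.7, 22.7 and 24.7 FPKM in overexpression samples and 16.9, 22.0 and 28.8 FPKM in control samples. The overexpression values lay inside the control range (0.06 ± 0.20 SE, limma adjusted p = 0.950). Itga1, chosen after its values were seen because its log2 change was the lowest of the 35, encodes a collagen-binding chain. It had 15.7, 12.7 and 5.06 FPKM in overexpression samples and 30.5, 15.4 and 15.8 FPKM in control samples. The groups overlapped through overexpression replicate 1, and the change was not called (-0.88 ± 0.40 SE, limma adjusted p = 0.557). It was -0.44 without overexpression replicate 3 and -0.58 without control replicate 1, which are the lowest and the highest sample of this gene.

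The order of the α chains by mean level was Itga3, Itga7, Itga5, Itgav, Itga1, Itga6, Itga9, Itga2b and Itga10. Over the 6 samples the ranges of neighbours were separate between Itga3 and Itga7, between Itga9 and Itga2b and between Itga2b and Itga10, and they overlapped elsewhere in this order. Itga9, whose product binds tenascin and osteopontin, reached 4.40 to 8.59 FPKM in overexpression samples and 6.90 to 8.68 FPKM in control samples. Itga2b, the platelet fibrinogen receptor chain, stayed at 1.43 to 1.71 FPKM in overexpression samples and 0.895 to 1.75 FPKM in control samples, and the 2 of 8 platelet and megakaryocyte markers measured summed to 0.525 to 1.65 FPKM in overexpression samples and 0.456 to 1.12 FPKM in control samples. Itga10, a collagen-binding chain of cartilage, was the lowest at 0.424 to 0.845 FPKM in overexpression samples and 0.252 to 0.501 FPKM in control samples. Among the β chains only Itgb5 and Itgb8 had separate ranges as neighbours.

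Itgb2, the β chain of leukocyte integrins, had 0.736, 0.563 and 2.65 FPKM in overexpression samples and 0.0731, 0.310 and 0.604 FPKM in control samples. It is described because its log2 change was the highest of the 35, a choice made after its values were seen. Overexpression replicate 3 was far above the rest, and control replicate 3 stood above overexpression replicate 2 (0.71 ± 0.33 SE, limma adjusted p = 0.568). Without overexpression replicate 3 the change was 0.33. Beside it, 3 of 12 leukocyte markers were measured, with a sum of 20.1 to 21.7 FPKM in overexpression samples and 25.3 to 33.2 FPKM in control samples. Cd14 was called lower, against 2.23% of all genes, while Csf1r (-0.44) and Cd68 (0.21) were not called. The common leukocyte antigen gene Ptprc was not analysed here.

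The activators of integrins did not pass in either direction. Tln1, which encodes talin-1, the main link between β tails and actin, had 99.3, 104.9 and 92.5 FPKM in overexpression samples and 81.9, 105.8 and 123.4 FPKM in control samples. Fermt2, which encodes kindlin-2, the talin partner outside blood cells, had 38.6, 36.9 and 31.3 FPKM in overexpression samples and 50.7, 33.3 and 36.9 FPKM in control samples. In both genes the groups overlapped, with log2 changes of -0.05 ± 0.18 (SE, limma adjusted p = 0.950) for Tln1 and -0.16 ± 0.19 (SE, limma adjusted p = 0.849) for Fermt2. Tln2, the minor talin here, was at 3.17 ± 0.326 FPKM in overexpression samples and 3.34 ± 0.369 FPKM in control samples (SD, n = 3 each). Itgb1bp1, whose product ICAP1 competes with talin for the β1 tail, had 10.3 to 14.2 FPKM in overexpression samples and 7.91 to 13.9 FPKM in control samples (0.28 ± 0.23 SE, limma adjusted p = 0.750). Itgb3bp, whose product is a centromere protein, had 3.12 to 4.34 FPKM in overexpression samples and 3.18 to 4.70 FPKM in control samples.

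The complex of ILK, PINCH and parvin, which bridges β tails to actin, was likewise not called. Ilk, its central pseudokinase, had 64.9, 65.7 and 67.5 FPKM in overexpression samples and 53.1, 68.6 and 89.4 FPKM in control samples. The overexpression samples lay close together within the wider control range (-0.06 ± 0.19 SE, limma adjusted p = 0.947). Lims1, encoding PINCH1, had 25.1 to 36.8 FPKM in overexpression samples and 27.0 to 50.8 FPKM in control samples. Its paralogue Lims2 stayed at 0.714 to 0.920 FPKM in overexpression samples and 0.330 to 1.88 FPKM in control samples. Parva, encoding α-parvin, had 20.4, 48.5 and 25.4 FPKM in overexpression samples and 50.7, 23.2 and 48.0 FPKM in control samples (-0.38 ± 0.37 SE, limma adjusted p = 0.801). Each group held samples near 20 and samples near 50 FPKM, so the spread within a group exceeded the difference between them.

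None of the 4 kinases and scaffolds was called, and all 4 log2 changes were above 0, where 45.8% of all genes were below 0. That of Bcar1 turned to -0.0132 with median-centring. The signs of Bcar1 and Pxn also turned with single samples left out. Ptk2, which encodes FAK, the kinase that is activated when integrins cluster, had 17.9, 19.3 and 16.8 FPKM in overexpression samples and 19.5, 15.1 and 12.9 FPKM in control samples. The groups overlapped (0.19 ± 0.18 SE, limma adjusted p = 0.788). Bcar1, encoding the FAK and Src substrate p130Cas, had 135.2 to 157.4 FPKM in overexpression samples and 123.8 to 153.7 FPKM in control samples (0.02 ± 0.15 SE, limma adjusted p = 0.971). Pxn, encoding the scaffold paxillin, had 80.5, 19.7 and 10.9 FPKM in overexpression samples and 15.2, 80.4 and 11.8 FPKM in control samples. A single sample in each group was about 4 or more times the others, and the confidence interval of the change ran from -1.80 to 1.97 around 0.08 (limma adjusted p = 0.983).

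Src, the kinase that acts with FAK, had 30.9, 35.7 and 39.3 FPKM in overexpression samples and 14.6, 18.0 and 37.0 FPKM in control samples. It is described because it had the largest change of the 18 focal adhesion genes, a choice made after its values were seen. Overexpression samples stood above control replicates 1 and 2, and control replicate 3 lay among them (0.69 ± 0.31 SE, 95% confidence interval -0.01 to 1.39, limma adjusted p = 0.548). Without control replicate 3 the log2 change was 1.07, past both thresholds. Its transcripts differed in pattern. Src-001 had 3.27, 3.68 and 5.54 FPKM in overexpression samples and 9.99, 10.9 and 6.77 FPKM in control samples, did not overlap between groups and was called lower (-0.99, limma adjusted p = 0.597). Src-007, whose annotated start is 5836 bases upstream, had 26.7, 0 and 32.5 FPKM in overexpression samples and 0.164, 0.743 and 0 FPKM in control samples. Src-005, which begins 31391 bases downstream of Src-001, had 0.924, 32.1 and 1.30 FPKM in overexpression samples and 1.65, 1.77 and 30.2 FPKM in control samples. The higher sums of Src thus rested on Src-007 in 2 samples and on Src-005 in the other 2.

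Src-201, which was not called, begins at the RefSeq start of Src, 13 bases downstream of Src-001. The window around that start (RefSeq, GRCm38.p6, chr2:157424043-157424342, plus strand) also holds the start of Src-001, the transcript called lower. It is shown with GC boxes in capitals:
Src: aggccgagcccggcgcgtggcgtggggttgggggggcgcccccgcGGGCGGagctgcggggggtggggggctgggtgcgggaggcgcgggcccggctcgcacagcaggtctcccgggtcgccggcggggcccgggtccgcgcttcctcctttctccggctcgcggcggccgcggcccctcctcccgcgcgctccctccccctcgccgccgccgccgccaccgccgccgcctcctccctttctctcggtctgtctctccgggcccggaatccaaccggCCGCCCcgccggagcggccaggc
It held 2 GC boxes and 0 matches to TATAAA, and 82.3% of its bases were G or C. Neither the start of Src-007 nor that of Src-005 lies in this window.

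**Figure D3:**
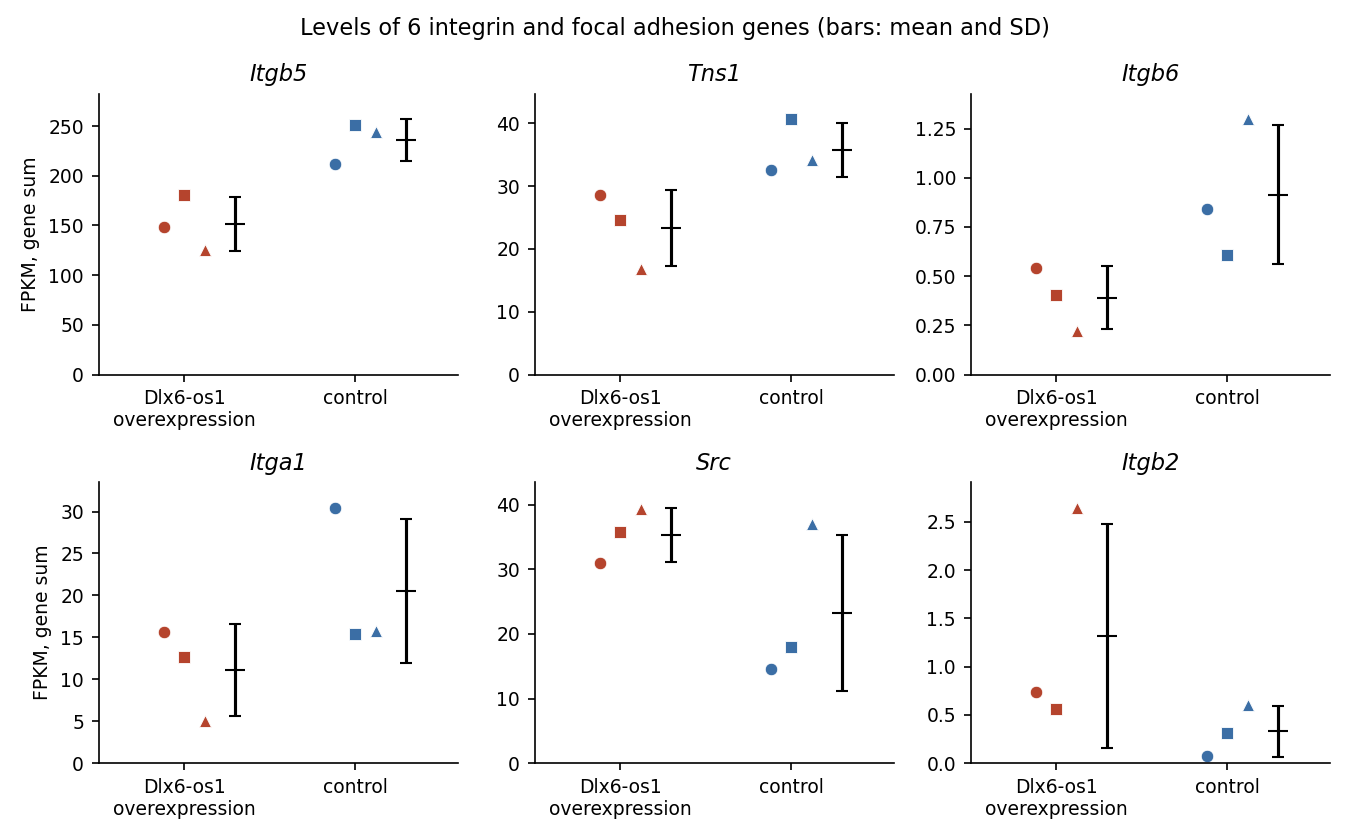
FPKM of Itgb5, Tns1, Itgb6, Itga1, Src and Itgb2 in 3 overexpression samples (red, left) and 3 control samples (blue, right), with symbols marking the replicate number and black bars the mean and SD. The groups do not overlap in Itgb5, Tns1 and Itgb6, and 1 or more samples cross in Itga1, Src and Itgb2.

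Of the genes that tie the plaque to actin, Tns1 was called lower. Tns1 encodes tensin-1, which binds both β tails and actin in long fibrillar adhesions. It had 28.6, 24.6 and 16.7 FPKM in overexpression samples and 32.5, 40.7 and 34.1 FPKM in control samples, with no overlap. The log2 change was -0.62 ± 0.21 (SE, 95% confidence interval -1.10 to -0.15, limma adjusted p = 0.481). It was -0.41 without overexpression replicate 3 and -0.53 without control replicate 2, and neither passed. The gene lies at chr1:73910231-74124449 on the minus strand (GRCm38), and 8 transcripts were listed, of which Tns1-001 was the most abundant in 5 samples and was listed at 0 in control replicate 2. Tns1-011, a short model of 586 bases, had 9.56, 6.98 and 5.25 FPKM in overexpression samples and 10.4, 12.8 and 11.6 FPKM in control samples and was called lower by itself (-0.64, limma adjusted p = 0.649). Because FPKM divides by length, such a short model adds much to a gene sum from few fragments. With transcripts weighted by their length, an alternative chosen after seeing the data, the change of Tns1 was -0.52 and fell short of the fold threshold, while that of Itgb5 stayed at -0.65.

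Vcl, which encodes vinculin, the protein that reinforces talin under force, had 76.7, 79.8 and 54.0 FPKM in overexpression samples and 93.0, 72.4 and 99.5 FPKM in control samples. The groups overlapped through control replicate 2 (-0.34 ± 0.20 SE, limma adjusted p = 0.643). Tns3, another tensin, had 29.6 to 44.3 FPKM in overexpression samples and 38.8 to 56.4 FPKM in control samples (-0.37 ± 0.21 SE, limma adjusted p = 0.633). Zyx, encoding zyxin, which marks adhesions under tension, had 53.7, 85.2 and 73.1 FPKM in overexpression samples and 71.7, 97.7 and 104.7 FPKM in control samples (-0.37 ± 0.22 SE, limma adjusted p = 0.638). Of its 7 listed transcripts, Zyx-004 was called lower (-1.04, limma adjusted p = 0.653) with at most 1.39 FPKM in overexpression samples and 1.87 to 3.99 FPKM in control samples. The abundant cross-linkers overlapped between groups, filamin A (Flna) with 152.4 to 198.4 FPKM in overexpression samples and 160.4 to 264.9 FPKM in control samples, and α-actinin-1 (Actn1) with 109.6 to 119.6 FPKM in overexpression samples and 98.4 to 149.7 FPKM in control samples. Lpp, encoding a zyxin relative, had 11.6 to 18.8 FPKM in overexpression samples and 13.2 to 24.1 FPKM in control samples. Of the 7 actin linkers, 6 had a log2 change below 0, against 45.8% of all genes, and 1 was called lower, against 2.23% of all genes. The linker not below 0, Actn1, was at 0.00 and turned to -0.0369 with median-centring.

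Of the 80 transcripts tested singly over all listed transcripts, 0 were called higher and 5 lower, namely Itgb5-001, Tns1-011, Src-001, Itgav-005 and Zyx-004, against 3.07% and 2.51% of all transcripts. The share assigned to a transcript could shift between samples while the gene sum did not. The transcripts of Itga3, Pxn and Parva are given because their assigned levels shifted from sample to sample, a choice made after their values were seen. Itga3-002 had 82.7, 2.04 and 86.5 FPKM in overexpression samples and 81.1, 1.08 and 118.2 FPKM in control samples, and Itga3-001 had 72.5, 156.3 and 49.9 FPKM in overexpression samples and 75.7, 186.0 and 74.0 FPKM in control samples. Replicate 2 of each group thus had almost no Itga3-002, and the difference did not follow Dlx6-os1. In Pxn the single high sample was carried by Pxn-002 in overexpression replicate 1 (63.8 FPKM) and by Pxn-010 in control replicate 2 (46.5 FPKM). Parva-001 held the high samples of Parva, with 18.5, 48.1 and 20.5 FPKM in overexpression samples and 50.3, 21.2 and 47.9 FPKM in control samples.

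The starts of Itga3-001 and Itga3-002 are 7516 bases apart on the minus strand and each has a RefSeq window, shown because the assigned level moved between them from sample to sample (RefSeq, GRCm38.p6, GC boxes in capitals). The first is chr11:95076665-95076964 and the second chr11:95069149-95069448:
Itga3-001 start: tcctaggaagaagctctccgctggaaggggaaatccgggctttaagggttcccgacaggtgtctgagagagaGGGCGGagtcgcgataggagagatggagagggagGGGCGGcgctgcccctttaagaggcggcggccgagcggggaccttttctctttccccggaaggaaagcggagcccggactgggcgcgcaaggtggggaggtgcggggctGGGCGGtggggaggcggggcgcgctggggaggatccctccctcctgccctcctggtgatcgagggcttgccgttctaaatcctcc
Itga3-002 start: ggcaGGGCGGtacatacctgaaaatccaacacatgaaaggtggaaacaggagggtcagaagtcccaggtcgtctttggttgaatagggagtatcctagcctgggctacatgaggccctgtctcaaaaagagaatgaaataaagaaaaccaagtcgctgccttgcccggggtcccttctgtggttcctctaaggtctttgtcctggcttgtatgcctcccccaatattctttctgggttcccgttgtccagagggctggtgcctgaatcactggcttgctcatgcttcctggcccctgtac
The window of Itga3-001 held 3 GC boxes with 66.7% G or C, and that of Itga3-002 held 1 GC box with 52.3% G or C. Neither contained TATAAA.

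**Figure D4:**
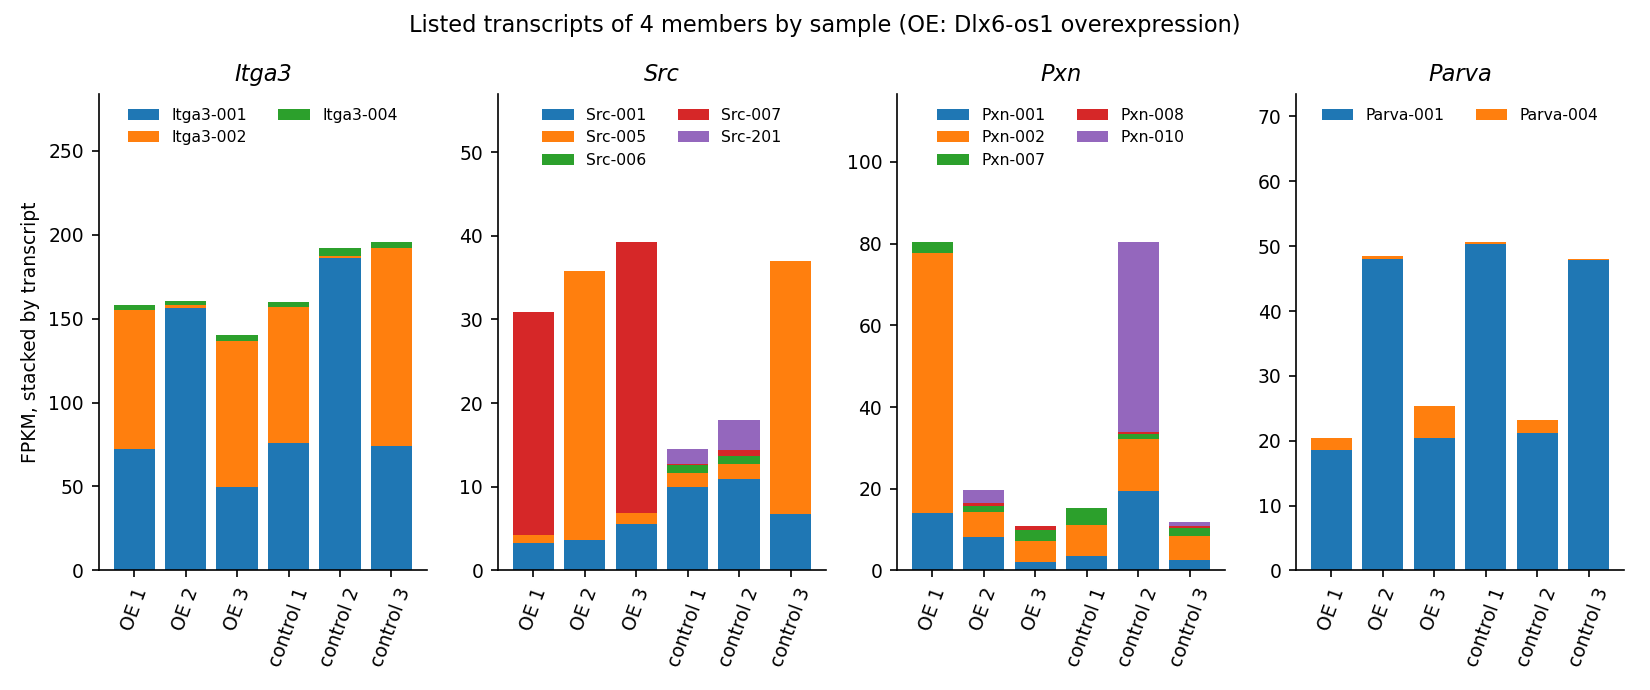
FPKM of the listed transcripts of Itga3, Src, Pxn and Parva, stacked for each of the 3 overexpression samples (left bars) and 3 control samples (right bars). The assignment between Itga3-001 and Itga3-002 shifts in replicate 2 of both groups under similar totals, and the high bars of Src and Pxn are carried by different transcripts in different samples.

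By sample, overexpression replicate 3 was the lowest in 21 of the 35 genes and in 11 of the 15 integrin chains. Control replicates 1 and 3 were the highest in 13 genes each (37.1%, against 27.2% and 16.9% of all genes). The summed α chain level was 268.5, 268.7 and 223.1 FPKM in overexpression samples and 290.8, 304.1 and 315.7 FPKM in control samples. The summed β chain level was 412.3, 409.4 and 321.0 FPKM in overexpression samples and 574.6, 474.5 and 522.9 FPKM in control samples. Both sums were lower in every overexpression sample than in every control sample, as a description with no test, and they are led by Itga3, Itgb1 and Itgb5. The sum of the 18 focal adhesion genes overlapped, with 1068, 1077 and 905 FPKM in overexpression samples and 1001, 1106 and 1254 FPKM in control samples.

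Around these genes, 5 lists of other adhesion genes gave 124 measured genes, of which 1 was called higher and 9 lower, where 2.49% of all genes were called higher and 2.23% lower. None of 14 activators and inhibitors, 33 signalling genes and 19 membrane partners, such as tetraspanins, was called by limma at these thresholds, and at a p under 0.05 before adjustment, whatever the fold, there were 0, 1 and 0. Of 32 further actin linkers 2 were called lower, Sorbs2 (-0.89 ± 0.33 SE), which encodes an adaptor of vinculin, and Pdlim2 (-0.67 ± 0.29 SE), which encodes a PDZ and LIM protein on actin, and both overlapped between groups. The 26 integrin ligands held the remainder, with 1 higher and 7 lower, a median log2 change of -0.39 and 22 of 26 below 0, against 45.8% of all genes. Without overexpression replicate 3 the number of the 124 called lower was 4, and it was 5 with each of the 3 control replicates left out in turn.

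Vcam1, the ligand of leukocyte integrins with the α4 chain, was the ligand called higher. It had 1.58, 2.25 and 3.55 FPKM in overexpression samples and 0.238, 0.116 and 0.612 FPKM in control samples (1.37 ± 0.25 SE, limma adjusted p = 0.307). All overexpression samples stood above all control samples. Spp1, which encodes osteopontin, an RGD ligand of αvβ5 and αvβ3, had 152.8, 132.8 and 78.9 FPKM in overexpression samples and 361.4, 255.0 and 188.8 FPKM in control samples (-1.14 ± 0.30 SE, limma adjusted p = 0.425). Tgfb3, whose latent form carries an RGD site bound by αv integrins, had 13.1, 10.7 and 5.66 FPKM in overexpression samples and 20.7, 20.9 and 18.1 FPKM in control samples (-1.02 ± 0.27 SE, limma adjusted p = 0.425). In both the groups were separate. Col6a1, a collagen VI chain, had 28.3, 28.4 and 13.8 FPKM in overexpression samples and 36.4, 46.4 and 34.6 FPKM in control samples (-0.77 ± 0.27 SE, limma adjusted p = 0.486), again with no overlap. The other 4 ligands called lower were Tnc, Col6a2, Col4a1 and Col4a2, and overexpression replicate 3 was the lowest sample in each of the 7.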

How the data were processed

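Polyadenylated RNA of 3 Dlx6-os1 overexpression and 3 control samples was sequenced after random priming and dUTP second-strand synthesis. The authors deposited FPKM of protein-coding transcripts. Per the submitters' processing notes FastQC, HISAT2, StringTie and the build mm10 were used, without versions, and for the strand setting of the counting step the sources used here give nothing. The larger of the group means of each transcript was at least 0.5001, so weaker transcripts were filtered out upstream. Depth is unknown, since the low values showed no steps worth 1 read, and precision rests on the spread between samples.

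FPKM were summed by gene symbol (11308 genes from 11314 identifiers) and log2(FPKM + 1) was compared with limma 3.58.1 in R 4.3.3 (lmFit, eBayes with trend), two-sided, with no replicate block and with Benjamini-Hochberg adjustment over all genes. A filter at a group mean of 0.5 removed 0 genes. An exact permutation test has a smallest p of 0.1 with 3 samples per group and was not used. The script was tested on simulated data with known folds of FPKM + 1. At a 1.5-fold change 56% of the changed genes were called and 20% passed after adjustment. At a 2-fold change these were 96% and 60%. A simulated 1.5-fold change equals the fold threshold, so noise decides on which side of it a gene falls. The 56% is therefore no measure of how well changes past the threshold are found. The simulated rates were not split by level, so they are not applied to chains near 1 FPKM. Of 11108 unchanged genes 177 were called. Coordinates follow GENCODE M21 (GRCm38), where all 19077 transcripts with the same ID and version had the same start and end. Promoters came from RefSeq (26 of 35 genes matched).

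Per-sample values are given for genes called, the 4 most abundant chains of each class, Tln1, Vcl, Ilk, Ptk2, Pxn, Fermt2, and separate groups with an absolute log2 change of at least 0.4. For other lists these are up to 4 called genes by p, and for transcripts those called with a mean of at least 1 FPKM. Further genes were chosen after their values were seen. Members and lists were chosen with earlier results of these data known. Alternatives were other pseudocounts (0.1, 0.5), filters, TPM, quantile normalization, median-centring, a replicate block, no moderation or trend, leaving out each sample, and length weighting. The expression of Dlx6-os1 itself is not reported here.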

Additional observations from a re-analysis of the deposited data

How the results depend on the processing

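Depth limits what can be said of chains near 1 FPKM, and 3 samples per group limit every call. No gene of the 35 reached an adjusted p under 0.05 by limma in any setting, and at an unadjusted p under 0.05 the number was 1 to 8. The number called higher was 0. It was 1 with a pseudocount of 0.1 or with length weighting, 2 with TPM or with the replicate block, and 0 to 2 with single samples left out. The number called lower was 2. It was 1 without moderation or with length weighting, 5 if any single transcript counted, and 0 to 3 with samples left out (0 without overexpression replicate 3, 1 without control replicate 2). Of the other adhesion genes 9 were lower, 5 with TPM, 2 without moderation and 4 to 14 with samples left out, and 1 was higher, or 1 to 2 with samples left out. Of the 80 transcripts 0 were higher, 1 with a pseudocount of 0.1 or 0.5 or with TPM, 2 with the block and 0 to 1 with samples left out, and 5 were lower, 3 with a pseudocount of 0.1, 8 with median-centring, 9 with the block, 2 without moderation and 3 to 6 with samples left out. The cause of these shifts was not tested. The median change of the 35 genes stayed below 0 throughout (-0.22 to -0.06). Same-numbered samples deviated together with r = 0.29, 0.02 and 0.29. For overexpression replicates 1 and 3 the same-numbered control gave the highest r. Overexpression replicate 2 deviated most like control replicate 1 (r = 0.11). With 3 samples per group these values cannot decide whether the numbers pair the samples. The block called Itgb2 and Src higher and Itga1, Itgb5 and Tns1 lower.

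Itgb5 was called in each setting but 1 and Tns1 in each but 4, as given above, the further one being the fit without moderation. Itgb2 was called higher in 6 settings, Src in 4, Itga1 lower in 3, Itgb6 lower with a pseudocount of 0.5 and Itgb8 lower without control replicate 3. The sign turned only for genes that were not called. With median-centring this was -0.0369 for Actn1, -0.0132 for Bcar1 and -0.0189 for Itgav. From group means it was -0.0266 for Actn1 and -0.00719 for Itgav, and with quantile normalization -0.0326 for Itgav. Length weighting gave -0.0735 for Itgav and 0.17 for Lpp. Lims2 was at 0.10 with a pseudocount of 0.1, 0.00898 with 0.5 and 0.0426 with TPM. With samples left out, the ranges of the change were -0.10 to 0.20 for Actn1, -0.0745 to 0.0804 for Bcar1, -0.28 to 0.0153 for Fermt2, -0.35 to 0.0139 for Flna, -0.24 to 0.13 for Ilk, -0.0352 to 0.23 for Itga2b, -0.13 to 0.24 for Itga5, -0.32 to 0.0969 for Itga9, -0.13 to 0.27 for Itgav, -0.15 to 0.0728 for Itgb3bp, -0.28 to 0.16 for Lims1, -0.25 to 0.31 for Lims2, -0.41 to 0.00567 for Lpp, -0.71 to 0.92 for Pxn, -0.21 to 0.0845 for Tln1 and -0.12 to 0.00816 for Tln2.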
